A study of Mus musculus with 24 samples.

Results

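Txnip and 4 related genes, Arrdc1, Arrdc2, Arrdc3 and Arrdc4, encode the alpha-arrestins described here, 5 of the 25160 genes in the count table. Txnip was chosen from measured values, as a leading gene with less RNA 1 h after lipopolysaccharide in both cell lines, and the Arrdc genes were added as its relatives. The changes from 0 h to 1 h are therefore given for all 5 genes as a description with no test, and so are the later changes of Txnip after lipopolysaccharide and their difference between the lines, which share libraries with that choice. No numerical threshold was part of the choice. The remaining family member, Arrdc5, had 0 counts in all 24 libraries.

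The cells were RAW 264.7, a mouse macrophage line, in 2 stable derivatives. One carried a doxycycline-inducible construct for Nur77, the nuclear receptor product of Nr4a1, and the other a doxycycline-inducible construct for GFP. Both received 50 ng/ml doxycycline for 18 h and then 500 ng/ml lipopolysaccharide (LPS), a component of bacterial outer membranes that macrophages sense through Toll-like receptor 4. The 6 groups were the line labelled Nur77 and the line labelled GFP, each at 0, 1 and 5 h of LPS, with 4 libraries a group. Each construct was present in 1 stable line, so a difference between the lines cannot be told apart from a difference between 2 selected cell populations. Nothing in the labels says whether the 4 libraries of a group were grown apart, and the spread behind each p-value may therefore be technical.

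Alpha-arrestins are adaptor proteins with an arrestin fold and short proline-rich motifs that recruit ubiquitin ligases of the Nedd4 family to membrane proteins, which are then ubiquitinated and taken into the cell. Txnip, the thioredoxin-interacting protein, also binds thioredoxin and promotes the endocytosis of glucose transporters. Its gene is switched on when glucose metabolites accumulate, through the MondoA and Mlx transcription factors at carbohydrate response elements, and Arrdc4 is known as a second target of the same factors with a like effect on glucose uptake. In macrophages Txnip is also known as a binding partner of the NLRP3 inflammasome.

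The 250 bases upstream of the annotated starts of Txnip and Arrdc4 are shown because both genes are known targets of the same glucose-sensing factors, and because the time course of Txnip and the line difference of Arrdc4 are the main results below. They were read from the RefSeq promoter table for GRCm38.p6, 5′ to 3′ on the strand of the gene, at chr3:96557707-96557956 on the plus strand for Txnip and at chr7:68749239-68749488 on the minus strand for Arrdc4. The windows end at the start given in that table. The window of Arrdc1 reaches 54 bases into the transcript whose counts are used below, and the other 4 windows end before theirs. Capitals mark matches to a carbohydrate response element, to the E-box and to the CCAAT box.
Txnip: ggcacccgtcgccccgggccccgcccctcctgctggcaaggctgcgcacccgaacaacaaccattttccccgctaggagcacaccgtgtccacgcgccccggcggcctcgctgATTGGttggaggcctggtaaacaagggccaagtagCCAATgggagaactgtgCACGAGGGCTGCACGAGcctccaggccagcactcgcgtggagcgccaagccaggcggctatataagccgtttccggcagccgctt
Arrdc4: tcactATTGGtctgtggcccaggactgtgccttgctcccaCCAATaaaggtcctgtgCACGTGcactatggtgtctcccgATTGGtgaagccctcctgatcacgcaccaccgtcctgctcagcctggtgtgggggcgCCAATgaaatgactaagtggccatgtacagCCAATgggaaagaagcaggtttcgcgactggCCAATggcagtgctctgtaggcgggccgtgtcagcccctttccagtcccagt

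Upstream of Txnip, the pattern of a carbohydrate response element, CACGNG followed after 5 bases by CNCGNG (N is any base), searched on both strands, matched once, at bases -85 to -69 from the start, as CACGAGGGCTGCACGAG. The same pattern was present in 92 of 32851 RefSeq promoter windows of the same length, 0.28%. Upstream of Arrdc4 that pattern had no match, but the palindrome CACGTG, the E-box letters to which Myc and Mlx relatives bind, was present at -193 to -188, as in 6.02% of windows. CCAAT, the letters recognised by the NF-Y complex, was searched on both strands. It occurred 6 times upstream of Arrdc4, a count reached in 19 windows (0.0578%), 3 times upstream of Arrdc2, 2 times upstream of Txnip, once upstream of Arrdc3 and not upstream of Arrdc1. At least 1 CCAAT was present in 33.8% of windows and at least 2 in 10.1%. The Nur77 half-site AAAGGTCA, present in 1.34% of windows, and the AP-1 site TGANTCA, present in 6.75%, had no match on either strand in any of the 5 windows. These matches are letters in a window and no binding was measured.

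**Figure D1:**
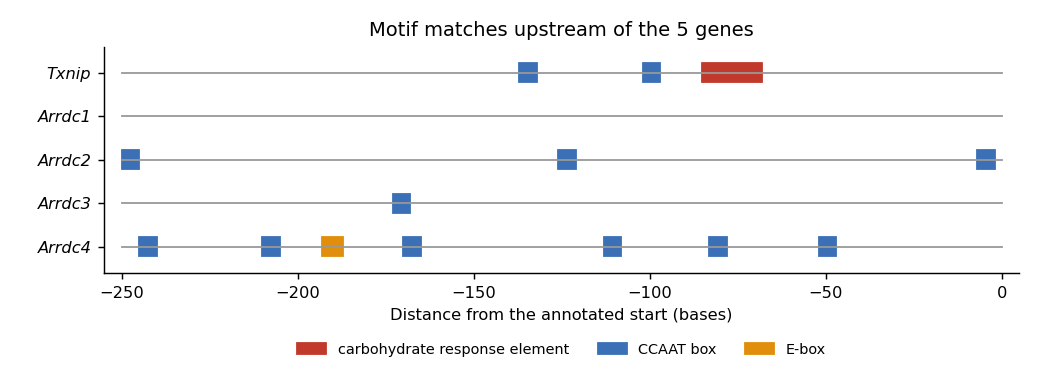
Positions of motif matches in the 250 bases upstream of the RefSeq start of each gene, with distance from that start in bases on the horizontal axis and coloured boxes for each motif. The carbohydrate response element pattern appears upstream of Txnip only among the 5 genes, and Arrdc4 has 6 CCAAT boxes and 1 E-box. The Arrdc1 window includes 54 bases of the transcript counted here.

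Levels are given as counts per 1000000 (CPM) of the library's total, with the total adjusted by TMM (trimmed mean of M-values), which corrects for a few abundant genes. Library totals ran from 8137306 to 29279140 counts. Differences are log2 fold changes with a standard error (SE) from edgeR. Its model was fitted over all 24 libraries to the 12213 genes that passed a filter on low counts, which does not require counts in every library. A gene was called when its p-value, adjusted over these genes by the Benjamini-Hochberg method, was under 0.05. All 5 genes passed the filter on low counts.

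Some measurements on the libraries bear on every result. Nr4a1 counts were not higher in the line labelled Nur77 at 0 h, where both lines lay between 2.53 and 3.71 CPM (log2 fold change 0.09, SE 0.39, adjusted p = 0.885). At 1 h Nr4a1 was lower in that line, at 9.29 to 42.4 CPM against 52.0 to 66.8 CPM (log2 fold change -0.91, SE 0.25, edgeR adjusted p = 0.00481), or -0.60 (SE 0.09, adjusted p = 1.63e-06) without the library described next. At 5 h it was 0.73 (SE 0.37, adjusted p = 0.113), or 0.72 (adjusted p = 3.51e-05) without that library. The labels do not give the species or sequence of the construct, so the counts at Nr4a1 do not check the line labels, and every direction between lines below rests on those labels. Replicate 2 of the Nur77-labelled line at 1 h stood apart. On the first principal component of log2 CPM, the direction of largest spread, it lay at 11.64, against -11.41 to -10.17 in the rest of its group. The same line lay at -48.13 to -45.81 at 0 h and at 62.65 to 64.16 at 5 h. The cause of this shift was not tested. The Nr4a1 level of replicate 2 was 9.29 CPM against 39.8 to 42.4 CPM in the other 3 libraries. The lowest correlation between libraries within its group was 0.976, against 0.988 or more in the other groups. Where leaving it out changed a call of a member or moved a value clearly, both values are given. All 10 macrophage markers were present at 1 CPM or more in each group, and their summed level was 10600 to 11900 CPM in the GFP-labelled line and 5900 to 8500 CPM in the Nur77-labelled line. The part of this difference in the results below was not tested. Summed markers of fibroblasts, lymphocytes and epithelium stayed under 1 CPM and those of neutrophils at 4.64 CPM or less.

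Txnip was by far the most abundant of the 5 genes. Its RNA (NM_023719, chr3:96557957-96561857, plus strand, GRCm38) stood at 749.0, 773.8, 792.6 and 751.5 CPM in the 4 libraries of the GFP-labelled line before LPS. After 1 h of LPS the same line had 226.1, 221.9, 222.9 and 215.9 CPM, and after 5 h it had 325.1, 350.2, 338.5 and 344.0 CPM. The groups did not overlap: every library at 1 h lay below every library at 5 h, and both lay below every library at 0 h. Relative to the mean at 0 h, the level was 28.9% ± 0.555 (SD, n = 4) at 1 h and 44.3% ± 1.39 at 5 h.

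In the Nur77-labelled line Txnip followed the same course from a lower start. The libraries at 0 h held 486.3, 503.0, 509.0 and 512.8 CPM. Those at 1 h held 103.6, 191.0, 93.83 and 98.35 CPM, and those at 5 h held 254.9, 272.2, 281.1 and 264.4 CPM. Replicate 2 at 1 h was the high library of its group, and even so it lay below all 4 libraries at 5 h. The mean at 1 h was 24.2% ± 9.22 (SD, n = 4) of the 0 h mean, or 19.6% over the 3 other libraries, and the mean at 5 h was 53.3% ± 2.22.

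On the log2 scale the Txnip difference from 0 h to 1 h was -1.79 (SE 0.14) in the GFP-labelled line and -2.05 (SE 0.14) in the Nur77-labelled line, or -2.35 (SE 0.05) without replicate 2. Ranked by log2 fold change with all libraries among the 9458 genes that reached 10 CPM in a group, Txnip was the 2nd lowest in the GFP-labelled line and the 3rd lowest in the other, which describes how it was chosen. Among all 12213 genes tested Txnip was the 25th and the 38th lowest. At 5 h against 0 h its log2 differences were -1.18 (SE 0.13) and -0.91 (SE 0.13). From 1 h to 5 h they were 0.61 (SE 0.13) and 1.14 (SE 0.14), the latter 1.44 (SE 0.05) without replicate 2, so the level at 5 h was between those at 1 h and 0 h in both lines. In bulk RNA, less RNA per cell and fewer cells that carry it cannot be told apart.

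**Figure D2:**
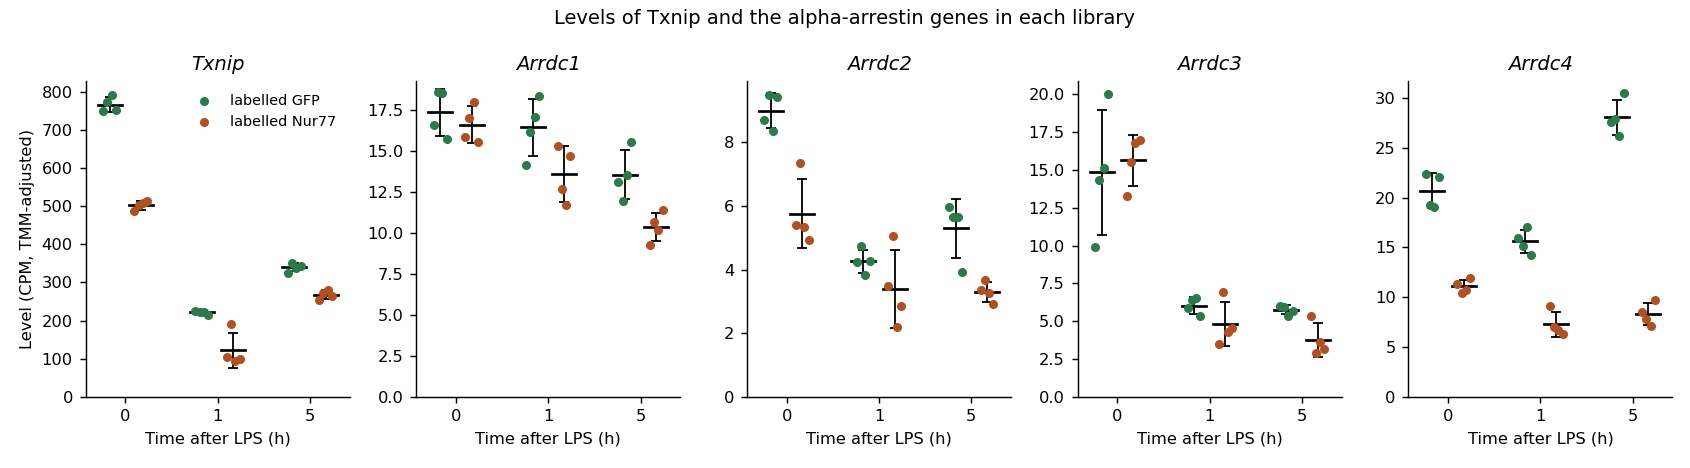
Level of each gene in every library in CPM (vertical axes start at 0 and differ between genes) by hours of LPS, with green points for the line labelled GFP and orange for the line labelled Nur77. Black bars are the mean and SD of 4 libraries. Txnip runs from 93.8 to 793 CPM, the other 4 genes from 2.18 to 30.5 CPM.

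The difference of Txnip between the lines was not part of its choice and was tested. Txnip was lower in the Nur77-labelled line at all 3 times, at 65.6% of the mean of the GFP-labelled line at 0 h, 54.9% at 1 h and 79.0% at 5 h, and the libraries of the lines did not overlap at any time. The log2 fold change was -0.61 at 0 h (SE 0.13, edgeR adjusted p = 0.000781), -0.87 at 1 h (SE 0.14, adjusted p = 1.48e-05) and -0.34 at 5 h (SE 0.13, adjusted p = 0.041). The call at 5 h was not held when any 1 of the 8 libraries at 5 h was left out (adjusted p 0.053 to 0.0944). Without replicate 2 of the Nur77-labelled line at 1 h the values were -0.61 (SE 0.04, adjusted p = 5.06e-12), -1.17 (8.46e-17) and -0.34 (2.62e-07).

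The LPS changes of Txnip in the lines are set side by side as an interaction, which is the log2 change in the Nur77-labelled line minus that in the GFP-labelled line. It is a description here, with no test, since it is built from the contrasts that chose Txnip. With all libraries it was -0.26 from 0 h to 1 h (SE 0.19), 0.27 from 0 h to 5 h (SE 0.19) and 0.53 from 1 h to 5 h (SE 0.19). Without replicate 2 of the Nur77-labelled line at 1 h the values were -0.56 (SE 0.07), 0.27 (SE 0.06) and 0.83 (SE 0.07).

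An antisense gene shares sequence with Txnip. Gm15441 lies on the minus strand at chr3:96555765-96566801 and shares 606 exon bases with Txnip, 19.4% of the exon bases of Txnip and 36.2% of its own. Since the strand setting of the counting was not stated, reads from the shared bases cannot be assigned to a strand. Gm15441 stood at 139 ± 13.4 CPM (SD, n = 4) in the GFP-labelled line at 0 h, 42.0 ± 3.09 at 1 h and 65.7 ± 2.60 at 5 h. The Nur77-labelled line had 97.2 ± 3.55, 21.3 ± 7.36 and 49.5 ± 5.18 CPM. Its level was 18.6% ± 1.15 (SD, n = 24) of that of Txnip over the 24 libraries, with a range of 16.2% to 20.5%. It was the gene whose log2 CPM followed Txnip most closely, with a Pearson correlation of 0.995 over 24 libraries that fall into 6 groups. The part of reads from the shared bases in the level of Gm15441 and in this correlation was not tested.

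**Figure D3:**
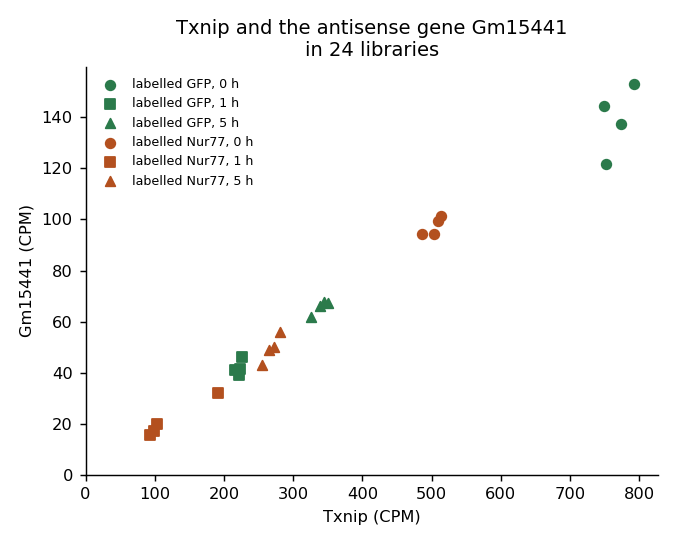
Level of Gm15441 (vertical axis, CPM) against Txnip (horizontal axis, CPM) in each of the 24 libraries, with colour for the line and marker shape for the hours of LPS. Gm15441 lay between 16.2% and 20.5% of Txnip in each library.

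The next genes in likeness to Txnip over the same libraries, among 9458 genes at 10 CPM or more, were Themis2 (0.967), Pex26 (0.965), Zfp316 (0.962) and Slx1b (0.946). Themis2, a signalling adaptor of macrophages and B cells, had 62.2, 39.6 and 46.9 CPM at 0, 1 and 5 h in the GFP-labelled line and 57.1, 34.6 and 45.2 CPM in the Nur77-labelled line. Zfp316, a zinc finger gene, had 11.4, 4.63 and 7.45 CPM and 9.70, 3.68 and 5.52 CPM. These correlations reflect 6 group levels more than 24 independent points.

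Levels of the 5 genes can be set side by side only per transcript length. Lengths were those of the matching GENCODE transcripts. The counted Arrdc3 transcript, NR_153410, had none, so the length of NM_001042591 (4101 bases) was used for Arrdc3. Per kilobase, Txnip had 274 ± 7.34 CPM (SD, n = 4) in the GFP-labelled line at 0 h. Arrdc1 followed at 10.4 ± 0.864, Arrdc4 at 5.30 ± 0.454, Arrdc2 at 3.82 ± 0.237 and Arrdc3 at 3.62 ± 1.01 CPM per kilobase. The libraries of Arrdc2 and Arrdc3 overlapped there. Among 11166 genes with a length, Txnip ranked 192nd per kilobase before LPS in this line, 879th at 1 h and 607th at 5 h, and 282nd, 1854th and 801st in the Nur77-labelled line.

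The order of the smaller genes moved with the group. Arrdc1 was the 2nd highest per kilobase in all 6 groups, though in the GFP-labelled line at 5 h its libraries (7.19 to 9.36 CPM per kilobase) overlapped those of Arrdc4 (6.71 to 7.81). At 0 h in the Nur77-labelled line Arrdc3 (3.81 ± 0.413) stood above Arrdc4 (2.85 ± 0.169), which overlapped Arrdc2 (2.44 ± 0.459). At 1 h in that line Arrdc4 (1.86 ± 0.324), Arrdc2 (1.44 ± 0.520) and Arrdc3 (1.18 ± 0.361) all overlapped. At 5 h Arrdc4 stood apart at 2.12 ± 0.285, while Arrdc2 (1.40 ± 0.132) and Arrdc3 (0.918 ± 0.268) overlapped.

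Of the 5 genes, Arrdc4 had the largest difference between the lines at 0 h and 5 h, and at 1 h with all libraries. Without replicate 2 of the Nur77-labelled line at 1 h, Txnip (-1.17) exceeded Arrdc4 (-1.04) at that time on the log2 scale. Its RNA (NM_001042592, chr7:68736994-68749238, minus strand) was present at 22.36, 19.22, 19.11 and 22.09 CPM at 0 h in the GFP-labelled line, at 15.92, 15.2, 17.07 and 14.23 CPM at 1 h and at 27.65, 27.95, 26.2 and 30.5 CPM at 5 h. The libraries of the Nur77-labelled line held 11.36, 10.44, 10.76 and 11.93 CPM at 0 h, 9.12, 6.999, 6.717 and 6.276 CPM at 1 h and 8.472, 7.843, 7.127 and 9.748 CPM at 5 h. The 2 lines did not overlap at any time, and in the GFP-labelled line the 3 times did not overlap either.

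Compared between lines, Arrdc4 was lower in the Nur77-labelled line, with a log2 fold change of -0.89 at 0 h (SE 0.10, edgeR adjusted p = 1.18e-07), -1.07 at 1 h (SE 0.11, adjusted p = 1.22e-08) and -1.76 at 5 h (SE 0.10, adjusted p = 4.2e-13). These are 53.7%, 46.6% and 29.6% of the mean of the other line. After LPS the 2 lines moved apart. From 0 h to 5 h Arrdc4 rose in the GFP-labelled line to 136% of its 0 h mean (log2 fold change 0.44, SE 0.10, adjusted p = 0.000293) and fell in the Nur77-labelled line to 74.6% (log2 fold change -0.43, SE 0.11, adjusted p = 0.00164).

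The interaction for Arrdc4 was -0.87 from 0 h to 5 h (SE 0.15, edgeR adjusted p = 0.00032) and -0.69 from 1 h to 5 h (SE 0.15, adjusted p = 0.00534). Of the 4 Arrdc genes it was the only one called in either, where 7.94% and 6.61% of all genes were called. From 0 h to 1 h, where 1.18% of all genes were called, the interaction of Arrdc4 was -0.18 (95% confidence interval -0.49 to 0.13, adjusted p = 0.514), and none of the 4 Arrdc genes was called. The description of that first hour was -0.41 (SE 0.10) in the GFP-labelled line and -0.59 (SE 0.11) in the other. Between 1 h and 5 h Arrdc4 rose in the GFP-labelled line (log2 fold change 0.85, SE 0.10, adjusted p = 6.51e-08). The value in the Nur77-labelled line was 0.17 (SE 0.11, adjusted p = 0.223).

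**Figure D4:**
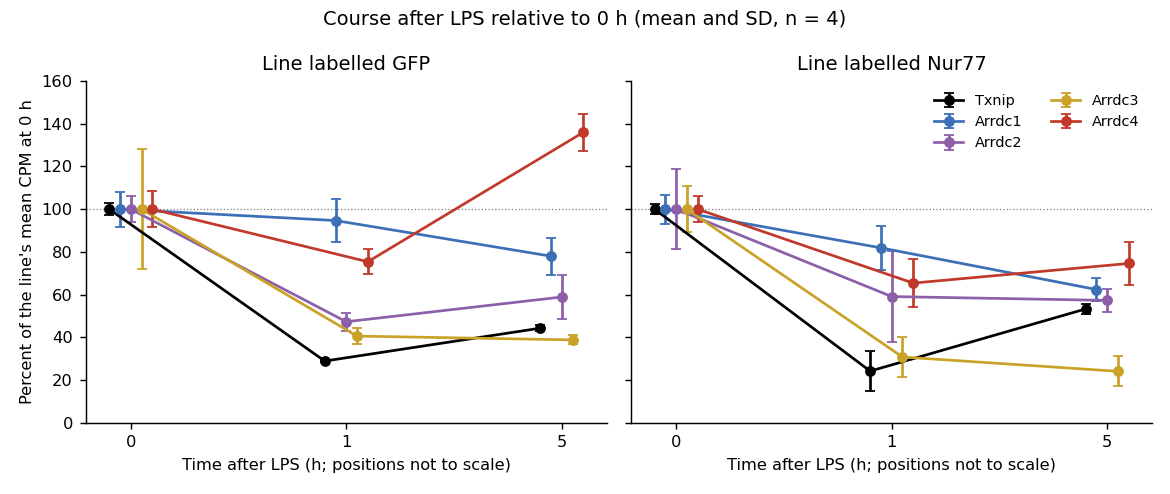
Mean level at 0, 1 and 5 h of LPS as a percent of the same line's mean at 0 h, with SD over 4 libraries, for the line labelled GFP (left) and the line labelled Nur77 (right). Arrdc4 ends at 136% in the first and at 74.6% in the second, while Txnip has its lowest mean at 1 h in both.

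A second transcript of Arrdc4, NM_025549, held 0.436 times the count of the longer one. This ratio was 0.458 ± 0.0253 (SD, n = 4) at 0 h, 0.503 ± 0.0642 at 1 h and 0.391 ± 0.00788 at 5 h in the GFP-labelled line. For the Nur77-labelled line it was 0.445 ± 0.0711, 0.487 ± 0.0763 and 0.384 ± 0.0644. At each time the mean ratios of the lines differed by less than their larger SD. The genes nearest to Arrdc4 over the 24 libraries were Mgat4b (0.951), Dennd11 (0.948), Itpk1 (0.946), Kcnk13 (0.942) and Lrrc42 (0.936). Itpk1, an inositol phosphate kinase, had 38.9, 36.6 and 52.4 CPM in the GFP-labelled line and 17.4, 15.0 and 14.8 CPM in the Nur77-labelled line.

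Arrdc3 is known to act in the trafficking of beta-adrenergic receptors and in the turnover of integrin beta 4. Its RNA (NR_153410, chr13:80883384-80896042, plus strand) stood at 9.873, 14.36, 15.11 and 20.01 CPM at 0 h in the GFP-labelled line, at 5.844, 6.372, 6.532 and 5.321 CPM at 1 h and at 6.034, 5.964, 5.368 and 5.64 CPM at 5 h. Libraries of the Nur77-labelled line had 13.29, 15.52, 16.77 and 16.99 CPM at 0 h, 3.498, 6.932, 4.275 and 4.572 CPM at 1 h and 5.347, 2.878, 3.638 and 3.189 CPM at 5 h. In both lines every library after LPS lay below every library at 0 h, and unlike Txnip the level had not turned back by 5 h.

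From 0 h to 1 h the log2 difference of Arrdc3 was -1.32 (SE 0.19) in the GFP-labelled line and -1.73 (SE 0.19) in the other, or -1.95 without replicate 2. With all libraries Arrdc3 was the 9th lowest in each line among the 9458 genes that reached 10 CPM in a group. Among all 12213 genes tested it was the 82nd lowest in the GFP-labelled line and the 62nd lowest in the other. By 5 h Arrdc3 had fallen to 38.8% of the 0 h mean in the GFP-labelled line (log2 fold change -1.38, SE 0.19, edgeR adjusted p = 5.36e-07) and to 24.1% in the Nur77-labelled line (-2.0, SE 0.20, adjusted p = 3.44e-09). The interaction from 0 h to 5 h was -0.61 (95% confidence interval -1.19 to -0.03, adjusted p = 0.195). Between 1 h and 5 h the value was -0.06 (SE 0.21, adjusted p = 0.811) in the GFP-labelled line and -0.27 (SE 0.22, adjusted p = 0.308) in the other, or -0.03 (adjusted p = 0.907) without replicate 2.

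Between lines Arrdc3 was 0.06 at 0 h (95% confidence interval -0.31 to 0.43, edgeR adjusted p = 0.817) and -0.35 at 1 h (adjusted p = 0.175), on the log2 scale. Without replicate 2 of the Nur77-labelled line the value at 1 h was -0.57 (adjusted p = 0.0242). At 5 h Arrdc3 was lower in the Nur77-labelled line (-0.55, SE 0.21, adjusted p = 0.0361), and this call was not held when GFP replicate 1, 2 or 4 or Nur77 replicate 2, 3 or 4 at 5 h was left out (adjusted p 0.053 to 0.116). Klhl42 (0.927) and Gins3 (0.908) were nearest to Arrdc3 in pattern.

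Arrdc2, one of the less studied members, had the fewest counts of the 5. Its libraries (NM_027560, chr8:70835129-70839720, minus strand) held 8.692, 9.507, 8.376 and 9.442 CPM at 0 h, 4.228, 4.734, 3.832 and 4.257 CPM at 1 h and 5.978, 5.652, 5.641 and 3.933 CPM at 5 h in the GFP-labelled line. The Nur77-labelled line had 5.397, 7.347, 5.351 and 4.928 CPM at 0 h, 3.498, 5.048, 2.181 and 2.869 CPM at 1 h and 3.351, 3.67, 3.267 and 2.915 CPM at 5 h. Before LPS and at 5 h all libraries of the Nur77-labelled line lay below those of the GFP-labelled line, and at 1 h the lines overlapped.

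After 1 h of LPS the mean of Arrdc2 was 47.3% of that at 0 h in the GFP-labelled line (log2 difference -1.06, SE 0.17) and 59.1% in the other (-0.78, SE 0.18), or 49.5% without replicate 2. By 5 h it had fallen in both lines, with a log2 fold change of -0.75 (SE 0.16, edgeR adjusted p = 0.000305) and -0.79 (SE 0.19, adjusted p = 0.000593). Arrdc2 was lower in the Nur77-labelled line at 0 h (-0.65, SE 0.17, adjusted p = 0.00298) and at 5 h (-0.69, SE 0.18, adjusted p = 0.00324). At 1 h the value was -0.36 (SE 0.19, adjusted p = 0.12), and without replicate 2 it was -0.59 (adjusted p = 0.00636). Pard6b (0.911), a cell polarity gene, was nearest in pattern, and over the 24 libraries Arrdc2 was also the family member nearest to Txnip (0.855).

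Arrdc1, which drives the budding of small vesicles from the plasma membrane with Tsg101 and Vps4, had the smallest difference of the 5 in the first hour of LPS. Its RNA (NM_001162485, chr2:24925352-24935335, minus strand) stood at 16.62, 18.6, 18.56 and 15.72 CPM at 0 h, 14.18, 16.2, 17.07 and 18.37 CPM at 1 h and 13.13, 11.97, 13.56 and 15.59 CPM at 5 h in the GFP-labelled line. In the Nur77-labelled line it stood at 15.87, 17.03, 18.01 and 15.56 CPM, then 15.32, 12.72, 11.69 and 14.7 CPM, then 9.3, 10.65, 10.17 and 11.39 CPM. The lines overlapped at 0 h and 1 h and not at 5 h.

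The difference of Arrdc1 from 0 h to 1 h was -0.07 (SE 0.10) in the GFP-labelled line and -0.29 (SE 0.10) in the other, on the log2 scale. By 5 h Arrdc1 had fallen to 78.0% of its 0 h mean (log2 fold change -0.36, SE 0.10, edgeR adjusted p = 0.00276) and to 62.4% (-0.69, SE 0.11, adjusted p = 2.87e-06). From 1 h to 5 h it fell by 0.30 (SE 0.10, adjusted p = 0.0165) and by 0.40 (SE 0.11, adjusted p = 0.00241) on the log2 scale. The call in the GFP-labelled line was not held without GFP replicate 4 at 1 h or replicate 2 at 5 h (adjusted p 0.0776 and 0.0704). Between lines the values were -0.06 at 0 h (adjusted p = 0.657), -0.29 at 1 h (SE 0.10, adjusted p = 0.0223) and -0.39 at 5 h (SE 0.11, adjusted p = 0.00373). The call at 1 h was not held without GFP replicate 3 or 4 or without Nur77 replicate 3 at 1 h (adjusted p 0.0509, 0.0984 and 0.102).

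Counted over the family, 3 of 5 genes were lower in the Nur77-labelled line at 0 h (Txnip, Arrdc2 and Arrdc4), where 19.7% of all genes were called lower and 39.8% in either direction. At 1 h 3 of 5 were lower (Txnip, Arrdc1 and Arrdc4) beside 24.8% lower and 51.2% in either direction over all genes. All 5 were called at 1 h without replicate 2, beside 50.9% of all genes in either direction. At 5 h all 5 were lower beside 24.4% lower and 46.4% in either direction. None of the 5 was called higher at any time. The median log2 fold change of the 5 genes was -0.61, -0.36 and -0.55 at 0, 1 and 5 h (-0.59 at 1 h without replicate 2), where the median over all genes tested was 0.019, 0.006 and 0.002. The 5 genes share an arrestin fold but are no replicates of a condition, and these counts are a description.

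After LPS, the fall from 0 h to 5 h was called in 3 of the 4 tested genes of the GFP-labelled line (Arrdc1, Arrdc2 and Arrdc3), where 31.9% of all genes were called lower, and the 1 rise was that of Arrdc4, where 30.6% were called higher. In the Nur77-labelled line all 4 tested genes fell, where 34.1% of all genes were called lower. From 1 h to 5 h, 2 of 4 were called in the GFP-labelled line (Arrdc1 lower and Arrdc4 higher) and 1 of 4 in the Nur77-labelled line (Arrdc1 lower), beside 55.2% and 55.5% of all genes. For the first hour, which chose Txnip, all 5 values were below 0 in each line, and 17.4% and 44.3% of all genes were called in either direction there. Nothing is read from that count.

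**Figure D5:**
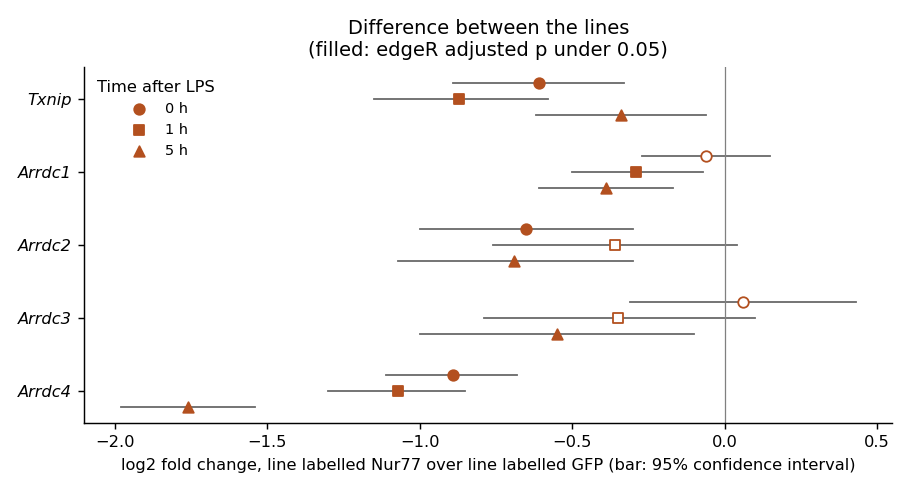
Log2 fold change of each gene, line labelled Nur77 over line labelled GFP, at 0 h (circles), 1 h (squares) and 5 h (triangles) of LPS with 95% confidence intervals. Filled points had an edgeR adjusted p under 0.05. Arrdc4 moves from -0.89 to -1.76 between 0 h and 5 h, and Txnip lies between -0.87 and -0.34.

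The wider network of MondoA, Mlx and Myc was examined next, and action of its members on the Txnip promoter was not tested. Lists of pathway genes are described by counts and values. Of 11 genes of the MondoA, Mlx and Myc network, 10 had enough counts, and 5, 4 and 7 of them were lower in the Nur77-labelled line at 0, 1 and 5 h, with none higher, where 19.7%, 24.8% and 24.4% of all genes were called lower. Mlxip, the gene of MondoA, was not called between lines (log2 fold change -0.13, -0.19 and -0.04, edgeR adjusted p 0.282, 0.0948 and 0.773), nor, with all libraries, was Mlx (0.15, 0.11 and 0.01, adjusted p 0.212, 0.333 and 0.938). Mxi1, a repressor in the Myc network, was lower at each time (-0.57, -0.60 and -1.53, adjusted p = 3.9e-17 at 5 h), and its interaction from 0 h to 5 h was -0.96 (adjusted p = 9.25e-09). From 0 h to 5 h of LPS, 4 genes of the list were called higher and 3 lower in the GFP-labelled line, beside 30.6% and 31.9% of all genes. In the Nur77-labelled line 5 were higher and 3 lower, where 34.1% of all genes were called lower. Mnt was among those that fell (-1.71 and -1.65 in the GFP- and Nur77-labelled lines). Myc rose from 1.28 CPM to 43.5 and 74.5 CPM after 1 and 5 h in the GFP-labelled line. The rise in the Nur77-labelled line was from 1.17 CPM to 43.7 and 48.5 CPM, and the line difference at 5 h was -0.62 (SE 0.09, adjusted p = 4.58e-06). Without replicate 2 of the Nur77-labelled line at 1 h, 6 genes of the list were lower at 1 h, and Mlx was called higher at 0 h (0.15, adjusted p = 0.0271), with -0.06 at 1 h (adjusted p = 0.468). In that fit 44.5% of all genes were called in either direction at 0 h and 50.9% at 1 h.

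Of the glucose transporters and hexokinases, 9 of 16 listed genes had enough counts. There were 6, 6 and 7 lower in the Nur77-labelled line at 0, 1 and 5 h and none higher, with a median log2 fold change of -0.54, -0.59 and -0.62, beside the same 19.7%, 24.8% and 24.4% of all genes called lower. From 0 h to 5 h of LPS the list was mixed, with a median log2 fold change of -0.02 in each line. In the GFP-labelled line 3 genes were called higher and 3 lower, beside 30.6% and 31.9% of all genes. In the Nur77-labelled line 3 were higher and 4 lower, where 34.1% of all genes were called lower. Slc2a1, the transporter GLUT1, was at 205 CPM at 0 h, 306 CPM at 1 h and 661 CPM at 5 h in the GFP-labelled line and at 125, 263 and 444 CPM in the other. Its log2 fold change from 0 h to 5 h was 1.69 (edgeR adjusted p = 1.15e-15) and 1.83 (adjusted p = 2.93e-16). Its line difference was -0.72, -0.22 and -0.57 (adjusted p = 6.13e-08, 0.0203 and 1.29e-06), and the call at 1 h was lost with only the groups compared in the fit and without GFP replicate 3 or 4 or Nur77 replicate 1 or 3, while without Nur77 replicate 2 the value was -0.35 (adjusted p = 1.65e-05). Hk3, a hexokinase of myeloid cells, was lower in the Nur77-labelled line (-1.22, -1.23 and -1.61). Without replicate 2 of the Nur77-labelled line at 1 h, 7, 8 and 7 genes of the list were lower at 0, 1 and 5 h, and 1, Hk2, was higher at 5 h (0.17, adjusted p = 0.0339). Over all genes, 44.5%, 50.9% and 51.3% were called in either direction in that fit.

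The thioredoxin system, whose central protein Txnip binds, had 15 of 15 genes tested. At 0, 1 and 5 h 8, 9 and 7 were lower in the Nur77-labelled line, beside 19.7%, 24.8% and 24.4% of all genes, and 2, 1 and 1 were higher. Without replicate 2 at 1 h, 9, 11 and 8 were lower and 2, 1 and 1 higher, beside 44.5%, 50.9% and 51.3% of all genes in either direction. Txn1, the gene of cytosolic thioredoxin, was lower at each time (-0.40, -0.52 and -0.26, edgeR adjusted p = 1.61e-05, 3.12e-07 and 0.00151). Its reductase Txnrd1 had 0.05 and 0.08 at 0 and 1 h (adjusted p 0.401 and 0.164) and was lower at 5 h (-0.15, adjusted p = 0.00964). Glrx, a glutaredoxin, was higher at each time (0.73, 1.04 and 0.98, adjusted p = 0.00113, 1.79e-05 and 2.79e-05), with 0.68 at 1 h (adjusted p = 4.49e-11) without that library. After LPS Txnrd1 rose in both lines from 0 h to 5 h (0.95 and 0.75), and Txn1 did not pass the test in either (-0.02 and 0.12, adjusted p 0.778 and 0.114).

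The last lists held partners of the family in ubiquitination and budding. Of 11 Nedd4 family ligases and adaptors 9 had enough counts, and Nedd4 itself did not. At 0, 1 and 5 h, 2, 0 and 1 of them were higher in the Nur77-labelled line and 1, 2 and 2 lower, or 2, 3 and 3 lower without replicate 2 at 1 h. Over all genes, 39.8%, 51.2% and 46.4% were called in either direction, or 44.5%, 50.9% and 51.3% without that library. Nedd4l was lower at all 3 times (-1.14, -1.58 and -2.22, edgeR adjusted p = 1.98e-09 at 5 h), and Itch was not called (0.03, -0.09 and -0.06, adjusted p 0.719, 0.237 and 0.407). Of 16 ESCRT genes, the budding machinery Arrdc1 uses, 1, 4 and 0 were higher and 3, 3 and 2 lower, or 2, 3 and 1 higher and 5, 3 and 3 lower without that library. The shares of all genes beside these counts are those just given. Tsg101 was higher at 1 h (0.35, adjusted p = 0.00119), with 0.06 and 0.07 at 0 and 5 h (adjusted p 0.579 and 0.495).

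Among the other genes with an arrestin fold, 7 of 9 were tested, and 0, 2 and 2 were higher and 1, 3 and 1 lower in the Nur77-labelled line at 0, 1 and 5 h, or 0, 1 and 2 higher and 1, 4 and 2 lower without replicate 2 at 1 h. The shares called over all genes in either direction were 39.8%, 51.2% and 46.4%, or 44.5%, 50.9% and 51.3% without that library. Arrb1, the gene of beta-arrestin 1, had 203, 190.0 and 107 CPM in the GFP-labelled line and 136, 97.1 and 33.8 CPM in the Nur77-labelled line. Its line difference was -0.58, -0.97 and -1.67 (edgeR adjusted p = 0.000981, 2.12e-06 and 7.39e-10), and its interaction from 0 h to 5 h was -1.09 (SE 0.19, adjusted p = 0.000496). Arrb2, the gene of beta-arrestin 2, had 0.06, 0.25 and 0.24 (adjusted p 0.642, 0.015 and 0.0213). Its call at 1 h was lost with only the groups compared and without GFP replicate 1 or Nur77 replicate 2 at 1 h, and its call at 5 h without GFP replicate 2 or Nur77 replicate 1 at 5 h.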

How the data were processed

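RNA-seq was measured in 24 libraries of 2 RAW 264.7 derivatives (6 groups of 4). CASAVA 1.8.2, HISAT2 2.1.0 and mm10 are named in the submitters' processing notes. For the counting tool and its strand setting the sources used here give nothing. The authors deposited estimated counts for 42361 transcripts, not normalized: all are multiples of 0.5 and 53.7% of values above 0 are whole. Transcripts were matched to genes through RefSeq (42203) and GENCODE (65), with 93 kept under their own identifiers, and the transcript with the highest mean stood for its gene. Isoforms share reads and were not summed.

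Counts were rounded and filtered by filterByExpr (12213 genes), and tested with glmQLFit (robust) and glmQLFTest of edgeR 4.0.16 (R 4.3.3) with 18 residual degrees of freedom, over 12 comparisons with Benjamini-Hochberg adjustment across genes in each. The fit was tested on simulated data. The interactions of Txnip, planned as tests, are given as a description because they share the contrasts that chose it. Members, gene lists and tests were chosen with earlier results of these data known. The genes named were the 5 members, 10 fixed partners, up to 3 called genes a list and line comparison at 10 CPM or more, with a selection of these given here, and the 5 genes nearest in pattern to each member; Nr4a1 was added as the gene of the construct. Alternatives were DESeq2 1.42.0, its size factors, other filters, only the groups compared, a replicate block, the mean over transcripts and leaving out each library. Replicate numbers did not pair the samples. Protein sequences were not used here. 1700023H06Rik, which lies opposite Arrdc3 with 0 shared exon bases, was not analysed here.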

Additional observations from a re-analysis of the deposited data

Results flagged for a closer look

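Txnip in replicate 2 of the Nur77-labelled line at 1 h stood at 191.0 CPM, far from the other 3 libraries of its group (93.8 to 104 CPM). Its gap to the nearest was 0.899 of the range of the group, above the limit of 0.829 for 4 samples. In the same library Nr4a1 was at 9.29 CPM against 39.8 to 42.4 CPM, so the library stood apart for an LPS-induced gene too.

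Arrdc2 in replicate 4 of the GFP-labelled line at 5 h was low, at 3.93 CPM against 5.64 to 5.98 CPM, a gap of 0.835 of the range. Of the 30 groups of values examined, chance flags about 1 in 20.

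The LPS response of Arrdc4 differed between the lines by the interaction test, at -0.87 from 0 h to 5 h (edgeR adjusted p = 0.00032) and at -0.69 from 1 h to 5 h (adjusted p = 0.00534). The libraries of the GFP-labelled line at 5 h all lay above those at 0 h, and those of the Nur77-labelled line at 5 h all lay below those at 0 h.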

How the results depend on the processing

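Of 767 alternative values of the members' tests, 742 kept their side of the threshold, 22 lost the call and 3 gained it. Of the results called in the main run, 0 reversed direction. Results that were not called could change sign and still count among the 742. Arrdc3 between lines at 0 h, for example, was 0.0611 in the main run and -0.0776 without GFP replicate 1 at 0 h. Txnip at 0 and 1 h and Arrdc4 at all 3 times kept their line calls under each alternative run. Between lines, Arrdc1 at 1 h was -0.287 with only the groups compared (edgeR adjusted p = 0.0889) and -0.368 to -0.214 when 1 library was left out. Arrdc2 and Arrdc3 at 1 h ran from -0.594 to -0.169 and from -0.571 to -0.214 with 1 library left out. Txnip at 5 h was -0.339 without the low-count filter (adjusted p = 0.0719) and -0.364 to -0.316 with 1 library left out. Arrdc3 at 5 h was -0.829 to -0.441 with 1 library left out. With 1 library left out, Arrdc1 from 1 h to 5 h in the GFP-labelled line was -0.369 to -0.237, and Arrdc4 in the Nur77-labelled line was 0.0941 to 0.296 (adjusted p = 0.0263 without replicate 1 at 1 h).

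The Txnip interaction with 1 library left out was -0.56 to -0.15 from 0 h to 1 h, 0.245 to 0.292 from 0 h to 5 h and 0.418 to 0.828 from 1 h to 5 h. From 0 h to 5 h it was 0.275 with only the groups compared. Leaving replicate 2 at 1 h of the Nur77-labelled line out of comparisons that do not use it was added after seeing the data.

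Counts over all genes moved most for the interactions. From 0 h to 1 h the count of 144 was 498 in DESeq2, 95 without the filter, 47 with only the groups compared and 74 to 1589 with 1 library left out. From 0 h to 5 h the count of 970 was 2084 with only the groups compared and 718 to 1672 with 1 library left out, including 1672 without replicate 2 of the Nur77-labelled line at 1 h. From 1 h to 5 h the count of 807 was 581 to 1502. LPS at 1 h in the Nur77-labelled line called 5406 genes, and 3490 with only the groups compared. The cause of each change was not tested.

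Samples with the same replicate number did not deviate together: over 60 pairs the correlation was -0.293 to 0.17, with 8 over 0.1, and 3 of 24 libraries were closest to their own number. With the replicate block Arrdc3 between lines at 5 h was -0.532 (adjusted p = 0.0544) and the interaction from 0 h to 1 h called 90 genes; no other member's call changed. Arrdc2, at 2.18 to 9.51 CPM, had the fewest counts of the members.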
